A study of Mus musculus with 2 samples.

Results

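The BMP and TGF-beta signaling genes described here are 53 genes: ligands of the BMP, GDF, TGF-beta, activin and inhibin families, their receptors, the SMAD proteins, the ID genes, secreted modulators and latent TGF-beta binding proteins. They were found on the arrays by the gene name that the scanner tables give each probe, which matched 79 of 39429 probes and 53 of 29924 gene names. All 53 genes had a probe that was bright enough to be tested, as had 21598 genes in all. The rule uses gene names and no measured value, though the list was chosen with earlier results of these data known.

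The arrays compare ureters of wildtype NMRI mouse embryos, dissected at E12.5 and kept as explants for 18 h. Treated explants received 10 µM BIO, an inhibitor of the kinase GSK3 that is used to switch on canonical WNT signaling, and control explants received the solvent DMSO at 2 parts per 1000. Each of 2 arrays held control RNA in 1 channel and BIO RNA in the other, from separate pools of ureters, with the dyes exchanged between the arrays, and 1 array counts as 1 replicate. A pool holds every cell type of the explant, and sex was not determined.

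Ligands of this family are secreted dimers that join type I and type II receptor kinases on the cell surface. Most BMP and some GDF ligands lead to phosphorylation of SMAD1, SMAD5 and SMAD9, and TGF-beta and activin ligands to that of SMAD2 and SMAD3. Both groups of SMADs enter the nucleus with SMAD4. ID genes are widely used as readouts of BMP signaling, and BMP4 from the ureteric mesenchyme is known to be needed for ureter development.

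Most of the 24 genes that changed had fallen with BIO. The gene of the activin subunit Inhbb fell 5.17-fold, and Tgfbr3, Gdf10, Tgfb1 and Chrdl1 fell between 2.18-fold and 2.58-fold. Fst, the gene of the activin-binding protein follistatin, rose 1.96-fold, and Grem1, Bmp5, Smad9, Inhba and Bmp2 rose less. The BMP receptor genes Bmpr1a, Bmpr1b, Bmpr2 and Acvr1, 7 of the 8 SMAD genes and all 4 ID genes were not called as changed.

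A gene was called when the mean of its log2 ratios, BIO over control, differed from 0 in limma (n = 2 arrays) with an adjusted p below 0.05, where the Benjamini-Hochberg adjustment ran over all tested probes. Of the 53 genes, 6 rose (11.3%) and 18 fell (34.0%), and 29 were not called. Among all genes tested, 9.14% rose and 14.8% fell, so that 23.9% were called, against 45.3% of the 53. The median log2 ratio of the 53 genes was -0.06, with -0.19 in replicate 1 and -0.05 in replicate 2, against -0.01 for all genes tested. Each of the 24 called genes went the same way on both arrays, which a call from 2 arrays largely requires. Of the 53 genes 17 had opposite signs, as had 5859 of all 21598 genes tested. At an unadjusted p below 0.05 (limma), 7 of the 53 genes were higher and 21 lower. Among all 21598 genes tested, 3281 were higher and 4647 lower at that threshold. By a rule with no test, a change of 2-fold or more that both arrays share with a signal of at least 100 in the brighter channel, 0 of the 53 genes were higher and 5 were lower. This rule was passed by 1.04% of all genes tested as higher and by 2.04% as lower. The 53 genes were thus called as fallen at a larger share than all genes, and as risen at a share near that of all genes. All 53 genes were bright enough to be tested, against 21598 of 29924 gene names. The shares were not compared at matched brightness.

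**Figure D1:**
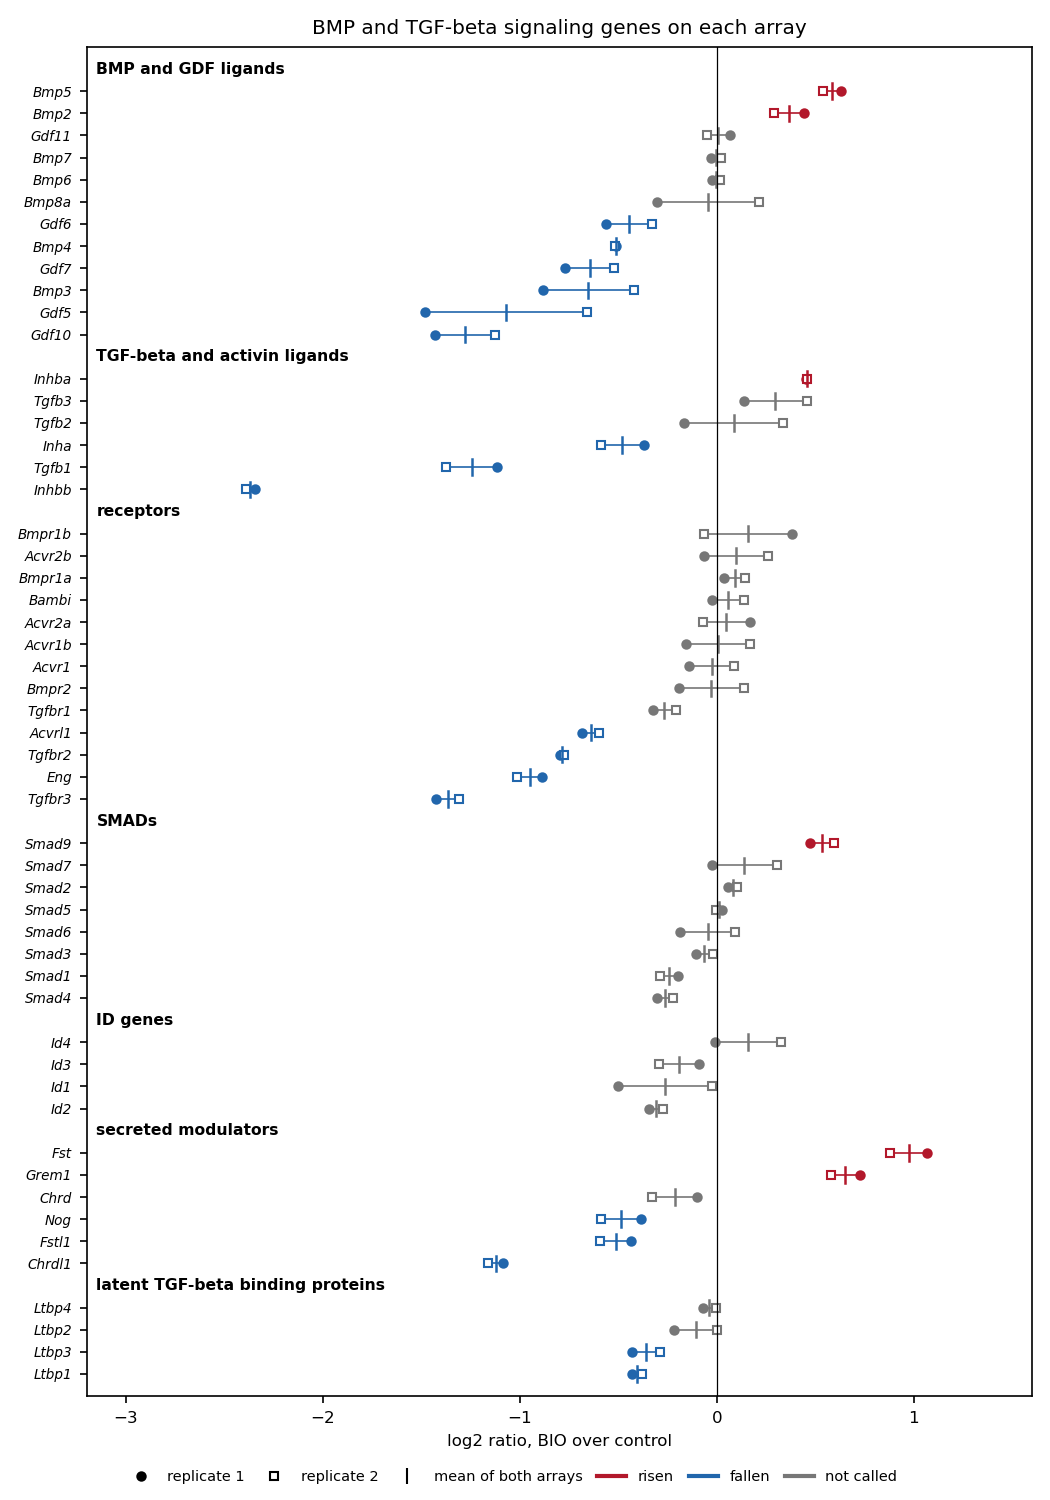
Log2 ratio of BIO over control (x axis) of each of the 53 genes, by role and ordered within a role by the mean. Filled circles are replicate 1, open squares replicate 2 and vertical ticks the mean; red genes were called as risen, blue genes as fallen and gray genes were not called. Inhbb lies apart at -2.37, and Gdf5 has the widest gap between arrays. The means of the ID genes lie between -0.31 and 0.16, and those of the 7 SMAD genes not called between -0.26 and 0.14.

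The data behind these counts were of similar quality on both arrays. Per channel, between 70.1% and 80.9% of the gene spots stood well above background, 0 spots were saturated, and log2 ratios had a median standard error of 0.11. As a check of the treatment, all 6 WNT target genes looked at (Axin2, Sp5, Lef1, Nkd1, Notum, Tcf7) rose, with a median log2 ratio of 1.35. The markers of the explant's tissues were all detected above background. Of 8 mesenchyme markers 7 fell (median -0.76), of 6 smooth muscle markers 5 fell (median -0.76), of 8 epithelial markers 4 fell (median -0.58), and all 8 endothelial markers fell (median -2.07), whereas all 6 cell cycle genes rose (median 1.03). In RNA of whole explants, fewer cells of a type and less RNA per cell cannot be told apart, and the part of these shifts in the changes described here was not tested.

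Among the 12 BMP and GDF ligands, 2 rose and 6 fell. Bmp4 (NM_007554), the main BMP ligand of the ureteric mesenchyme, has a probe on chromosome 14 at 47003391 to 47003450 (mm9, minus strand). Its normalized intensity, the background-corrected brightness after dye normalization within the array, was 140826 and 123356 in the control channels of replicates 1 and 2, and 98698 and 86337 in their BIO channels. BIO was lower on both arrays by nearly the same amount, with log2 ratios of -0.51 and -0.51. The mean was -0.51 ± 0.11 (SE, n = 2) and the adjusted p 0.0111 (limma). This call was lost with the processed signals of the scanner software (-0.55, adjusted p 0.0602) and with median centering in place of loess (-0.22, adjusted p 0.684). The other probe of Bmp4, downstream of it on the minus strand at 47003198 to 47003257, was not well above background in any channel and was not tested. The first 30 of the 60 bases of both probes are shown, since the bright and the dim probe belong to the same accession.
Bmp4, bright probe: caaccacctacacataccacacaaactgct
Bmp4, dim probe: gacaaatatatttataactacatattaaaa

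Bmp5 (NM_007555), a BMP of the same subgroup as Bmp6 and Bmp7, moved the other way. Its intensity rose from 3452 to 5352 in replicate 1 and from 3138 to 4561 in replicate 2. Its log2 ratios were 0.63 and 0.54, with a mean of 0.59 ± 0.11 (SE) and an adjusted p of 0.00653. Bmp2, the closest relative of Bmp4, had log2 ratios of 0.44 and 0.29 (mean 0.37 ± 0.11, adjusted p 0.0465). Both rises were lost with the processed signals and with median centering, and that of Bmp2 also with an offset of 16 and with no filter on dim probes. Bmp6 was at -0.03 and 0.02 (mean -0.01 ± 0.11, adjusted p 0.979). Bmp7, Bmp8a and Gdf11, of which the last is a relative of myostatin, were not called either, and the means of these 4 genes lay between -0.05 and 0.01.

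The largest fall among the BMP and GDF ligands was that of Gdf10 (NM_145741, chromosome 14, 34748161 to 34748220), a ligand close in sequence to Bmp3. Its intensity was 2605 and 2070 in the control channels of replicates 1 and 2, and 965 and 949 in their BIO channels. Both arrays were low with BIO, with log2 ratios of -1.43 and -1.12, a mean of -1.28 ± 0.12 (SE) and an adjusted p of 0.000277. Bmp3, which is known to counteract other BMPs, fell by 0.65 ± 0.13 (arrays -0.88 and -0.42, adjusted p 0.0104). Gdf5, Gdf6 and Gdf7, a subgroup known for its role in joints, all fell. Gdf5 had the widest gap between the arrays, from 2702 in control to 967 with BIO in replicate 1 and from 2376 to 1507 in replicate 2. Its log2 ratios of -1.48 and -0.66 gave a mean of -1.07 ± 0.18 (adjusted p 0.00417), and its other probe fell by 0.72. Gdf6 fell by 0.44 ± 0.12 (arrays -0.56 and -0.33, adjusted p 0.0266) and Gdf7 by 0.65 ± 0.12 (arrays -0.77 and -0.52, adjusted p 0.00563). Gdf7 was dim, with processed signals of 59.1 and 65.4 in the control channels and 29.0 and 36.3 in the BIO channels. Its other probe, at 0.08 and 0.11 on the arrays, was too dim to be tested. With the processed signals the calls of Bmp3, Gdf5 and Gdf6 were lost at ratios of -0.60, -1.06 and -0.50, and that of Gdf6 also with median centering (-0.53).

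Of the 6 TGF-beta and activin ligand genes, 1 rose and 3 fell, and the genes of the activin and inhibin subunits went in different directions. Dimers of the beta subunits, encoded by Inhba and Inhbb, are activins, whereas a dimer of a beta subunit with the alpha subunit, encoded by Inha, is an inhibin and counteracts activin. The 250 bases before the start that a RefSeq promoter table of GRCm38.p6 gives these 3 genes are shown 5′ to 3′. They follow the strand of the gene and are shown because the 3 genes belong to the same proteins and did not move together. The stretches are chr13:16011601-16011850 (plus strand) for Inhba, chr1:119422249-119422498 (minus strand) for Inhbb and chr1:75507359-75507608 (plus strand) for Inha. Capitals mark CTTTGA, the core shared by many TCF/LEF binding sites, or TCAAAG, which is the same core on the other strand.
Inhba: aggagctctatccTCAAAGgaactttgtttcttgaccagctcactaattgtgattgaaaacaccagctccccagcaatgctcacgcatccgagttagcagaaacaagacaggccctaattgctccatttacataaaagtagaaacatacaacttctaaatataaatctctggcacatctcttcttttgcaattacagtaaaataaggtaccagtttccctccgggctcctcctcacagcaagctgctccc
Inhbb: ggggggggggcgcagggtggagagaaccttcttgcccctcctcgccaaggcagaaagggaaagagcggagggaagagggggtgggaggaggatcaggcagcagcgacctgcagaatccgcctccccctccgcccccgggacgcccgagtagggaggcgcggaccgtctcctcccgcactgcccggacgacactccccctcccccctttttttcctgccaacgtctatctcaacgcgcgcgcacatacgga
Inha: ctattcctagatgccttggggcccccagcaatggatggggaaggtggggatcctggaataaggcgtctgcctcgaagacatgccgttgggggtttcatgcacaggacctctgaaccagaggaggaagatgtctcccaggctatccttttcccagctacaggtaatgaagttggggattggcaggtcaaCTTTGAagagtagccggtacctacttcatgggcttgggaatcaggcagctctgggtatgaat

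Inhbb (NM_008381, chromosome 1, 121312160 to 121312219 in mm9) showed the largest change of the 53 genes. Its intensity was 1140 and 1140 in the control channels of replicates 1 and 2, and 224 and 217 in their BIO channels. Both arrays were low with BIO to nearly the same extent, with log2 ratios of -2.35 and -2.39, a mean of -2.37 ± 0.11 (SE) and an adjusted p of 3.08e-05. The probe was well above background in all 4 channels. Inha (NM_010564) was at 2189 and 1692 in replicate 1 and at 2170 and 1442 in replicate 2, and its log2 ratios of -0.37 and -0.59 gave a mean of -0.48 ± 0.11 (adjusted p 0.0190), a call that was lost with the processed signals (-0.45, adjusted p 0.0899). Inhba (NM_008380) was higher with BIO on both arrays. It rose from 447 to 612 and from 453 to 621, with log2 ratios of 0.45 and 0.46 and a mean of 0.46 ± 0.11 (adjusted p 0.0185), a call that was lost with median centering (0.33, adjusted p 0.421).

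In the stretches shown above, the core lies 237 to 232 bases before the listed start of Inhba, which rose. It lies 62 to 57 bases before the listed start of Inha, which fell, and the letters are not in the Inhbb window. The first part of the Inha stretch reads as coding sequence of inhibin alpha, so this listed start appears to lie inside the gene. The core in it may therefore not lie upstream of the Inha transcript that the probe measures. RefSeq promoters were found for 37 of the 53 genes. The core was in 13.8% of all 32851 promoters of the table on either strand, and in 2 of the 37, which are these 2 genes. The letters GGCGCC, a GC-rich element bound by BMP SMADs that reads the same on both strands, were in 9.59% of all promoters and in 10 of the 37. Of these 10 genes 2 rose (Grem1 and Smad9), 0 fell and 8 were not called, among them Id2 and Id4, while 4 of the 37 genes with a promoter rose and 11 fell. Such matches describe letters in a short window and not bound sites.

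Tgfb1 (NM_011577, chromosome 7, 26489877 to 26489936) encodes a TGF-beta known for its roles in blood vessels and immune cells. Its intensity was 978 and 951 in the control channels of replicates 1 and 2, and 451 and 367 in their BIO channels. It was low with BIO on both arrays (log2 ratios -1.12 and -1.37, mean -1.24 ± 0.12, adjusted p 0.000273). Tgfb2 and Tgfb3 were not called. Tgfb3 was above 0 on both arrays, at 0.14 and 0.46 (mean 0.30 ± 0.12, adjusted p 0.117). Tgfb2 was at -0.16 and 0.33 at its brightest probe (adjusted p 0.716) and at 0.24 and 0.42 at its other probe (adjusted p 0.0683).

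**Figure D2:**
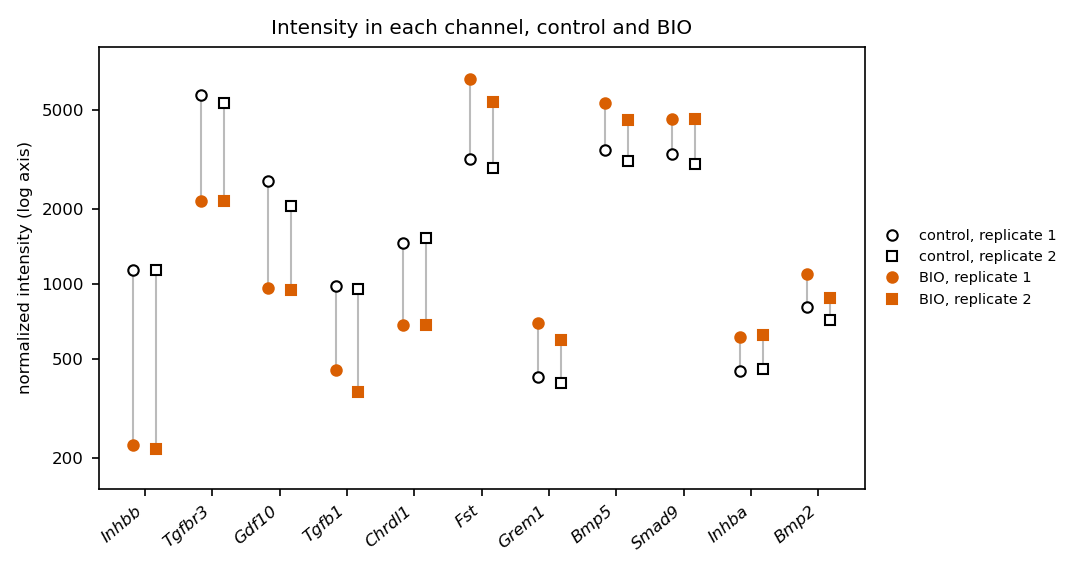
Normalized intensity (log axis) of the 5 genes that fell at least 2-fold by the rule and of the 6 genes that rose. Open symbols are control channels and filled symbols BIO channels, circles replicate 1 and squares replicate 2; gray lines join the channels of an array. On each array BIO lies below control for the 5 genes on the left and above it for the 6 genes on the right.

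Among the 13 receptor genes, 4 fell and 0 rose, and the 4 are co-receptors or receptors of TGF-beta and of the endothelium. Tgfbr3 (NM_011578, chromosome 5, 107535818 to 107535877) encodes betaglycan, which presents TGF-beta to its receptors and binds inhibin. Its intensity was 5789 and 5363 in the control channels of replicates 1 and 2, and 2156 and 2167 in their BIO channels. The log2 ratios were -1.43 and -1.31, with a mean of -1.37 ± 0.11 (SE) and an adjusted p of 0.000148, so that it was low with BIO on both arrays. Tgfbr2, the type II receptor of TGF-beta, fell from 9902 to 5707 and from 9132 to 5324 (log2 ratios -0.79 and -0.78, mean -0.79 ± 0.11, adjusted p 0.00154), and its other probe fell by 0.71. Tgfbr1, the type I receptor that works with it, was at -0.32 and -0.21 (mean -0.27 ± 0.11, adjusted p 0.119) and was not called.

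Eng and Acvrl1 encode a co-receptor and a type I receptor that are typical of endothelial cells. Eng had an intensity of 552 and 589 in the control channels and of 298 and 292 in the BIO channels, and its log2 ratios of -0.89 and -1.01 gave a mean of -0.95 ± 0.11 (adjusted p 0.000697). Acvrl1 fell by 0.64 ± 0.11 (arrays -0.68 and -0.60, adjusted p 0.00427). The endothelial marker list fell more than both genes, from -2.63 for Kdr to -1.22 for Tie1, and all 8 of its genes were still well above background in the BIO channels. The processed signals of the 8 markers summed to 28598 and 34430 in the control channels and to 5317 and 9919 in the BIO channels. Macrophage markers were also lower, with 4 of 7 tested genes fallen (median -0.44). Their part in the falls of Eng, Acvrl1 and Tgfb1 was not tested.

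The main receptors of BMP and activin ligands were not called. The means of the BMP receptor genes Bmpr1a, Bmpr1b, Bmpr2 and Acvr1 lay between -0.03 and 0.16, with adjusted p values from 0.447 to 0.902. Bmpr1b had opposite signs on the arrays, at 0.38 and -0.06. The activin receptor genes Acvr1b, Acvr2a and Acvr2b lay between 0.01 and 0.10. Bambi, which encodes a decoy receptor without kinase activity, was at 0.06 (adjusted p 0.763). The median of all 13 receptor genes was -0.03, and it was 0.01 with the processed signals and 0.07 with the deposited score table.

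Of the 8 SMAD genes only Smad9 (NM_019483) was called. It encodes a SMAD of the BMP branch, and its intensity rose from 3327 to 4619 in replicate 1 and from 3042 to 4602 in replicate 2. BIO lay above control on both arrays, and the log2 ratios of 0.47 and 0.60 gave a mean of 0.54 ± 0.11 (SE, adjusted p 0.0101). The call was lost with the processed signals (0.58, adjusted p 0.0534) and with median centering (0.45, adjusted p 0.180). Its promoter stretch, chr3:54755332-54755581 on the plus strand, is shown because Smad9 is the BMP SMAD that rose, with the element GGCGCC in capitals 51 to 46 bases before the start. The same element lies 19 to 14 bases before the start of the BMP SMAD gene Smad5, which was not called.
Smad9: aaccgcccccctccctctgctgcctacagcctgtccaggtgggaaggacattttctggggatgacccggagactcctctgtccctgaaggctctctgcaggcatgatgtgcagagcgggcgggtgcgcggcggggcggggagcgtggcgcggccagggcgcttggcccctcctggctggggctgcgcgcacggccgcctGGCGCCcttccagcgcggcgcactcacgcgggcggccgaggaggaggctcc

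The other BMP SMAD genes, Smad1 and Smad5, were at -0.24 and 0.01, and the genes of the TGF-beta and activin SMADs, Smad2 and Smad3, at 0.08 and -0.06. The shared partner Smad4 was at -0.31 and -0.22 on the arrays (mean -0.26 ± 0.11, adjusted p 0.118). The inhibitory Smad6 was at -0.05 and Smad7 at 0.14, and both had opposite signs on the arrays. The median of the 8 genes was -0.02, and its sign turned under other scalings, with 0.04 for the processed signals and 0.04 for median centering.

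ID genes encode factors that hold back bHLH transcription factors, and none of the 4 was called (1 was lower at an unadjusted p below 0.05). Id2 came closest. Its intensity was 122086 and 112835 in the control channels of replicates 1 and 2, and 96033 and 93470 in their BIO channels, which gave log2 ratios of -0.35 and -0.27, a mean of -0.31 ± 0.11 (SE) and an adjusted p of 0.0757. Id4 was at -0.01 and 0.33 (mean 0.16 ± 0.12, adjusted p 0.408). Id1 was at -0.50 in replicate 1 and at -0.02 in replicate 2 (mean -0.26 ± 0.14, adjusted p 0.209), and Id3 at -0.09 and -0.29 (mean -0.19 ± 0.11, adjusted p 0.269). Id1, Id2 and Id3 thus lay below 0 on both arrays without passing the test. With median centering in place of loess Id2 was at -0.03 and Id3 at 0.05, and the median of the 4 genes went from -0.23 to 0.01.

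Secreted modulators bind ligands outside the cell, and of these 6 genes 2 rose and 3 fell. Fst (NM_001301375, chromosome 13, 115243565 to 115243624) encodes follistatin, which traps activins. Its intensity rose from 3191 in control to 6690 with BIO in replicate 1 and from 2938 to 5404 in replicate 2. The log2 ratios of 1.07 and 0.88 gave a mean of 0.97 ± 0.11 (SE) and an adjusted p of 0.000697, and Fst was the only risen gene called in each of the 5 alternatives that use the scanner values. Grem1, a BMP antagonist, rose from 422 to 698 and from 398 to 594 (log2 ratios 0.72 and 0.58, mean 0.65 ± 0.11, adjusted p 0.00436), a call that was lost with median centering (0.52, adjusted p 0.101).

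No other BMP antagonist among the secreted modulators was called as risen. Chrdl1 (NM_031258, chromosome X, 139732534 to 139732593) fell from 1458 to 686 in replicate 1 and from 1530 to 685 in replicate 2. It was low with BIO on both arrays, with log2 ratios of -1.09 and -1.16, a mean of -1.12 ± 0.11 (SE) and an adjusted p of 0.000301, and its other 2 probes fell by 1.00 and 0.72. Nog fell by 0.49 ± 0.11 (arrays -0.38 and -0.59, adjusted p 0.0175), a call that was lost with the processed signals (-0.46, adjusted p 0.103). Chrd was at -0.21 (adjusted p 0.223). Fstl1, a follistatin-like protein with a broad mesenchymal expression, fell by 0.51 ± 0.11 (arrays -0.44 and -0.59, adjusted p 0.0126). It lost its call with median centering (-0.22, adjusted p 0.692) and with the processed signals (-0.54, adjusted p 0.0669).

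Latent TGF-beta binding proteins hold the inactive TGF-beta complex in the matrix. Of the 4 genes 0 rose, and Ltbp1 and Ltbp3 fell at adjusted p values near the threshold. Ltbp1 was at -0.43 and -0.38 on the arrays (mean -0.40 ± 0.11, adjusted p 0.0300) and Ltbp3 at -0.43 and -0.29 (mean -0.36 ± 0.11, adjusted p 0.0491). Both calls were lost with the processed signals and with median centering, that of Ltbp1 also with the mean of all probes (-0.14, adjusted p 0.351), and that of Ltbp3 with every alternative that uses the scanner values. Ltbp2 and Ltbp4 were at -0.11 and -0.04. The probes of Ltbp1 differed. The brightest, for NM_019919 on chromosome 17 at 75790530 to 75790589, gave the fall, whereas a dim probe for AK053964 at 75446945 to 75447004 was at 0.11 and 0.12 (mean 0.12, adjusted p 0.483). The first 30 of the 60 bases of both are shown because their calls differ.
Ltbp1, NM_019919: ggaagtggaagagcttcatagagtttatta
Ltbp1, AK053964: tacgttggaccagaggctgcttcccaatac

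Of the 53 genes 33 had 1 probe and 20 had several. Of the 23 other probes that were tested, 19 had the sign of the brightest probe and 21 its call, and Ltbp1 and Ltbp3 made the 2 exceptions. Which exon or untranslated region a probe lies in was not looked up here.

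All 24 called genes kept their sign under each of 6 alternative ways of making the ratios, but their calls differed in how well they held. In the 5 alternatives that use the scanner values, 10 genes were called each time. These were the 9 fallen genes Inhbb, Tgfbr3, Gdf10, Tgfb1, Chrdl1, Eng, Tgfbr2, Gdf7 and Acvrl1, and the risen Fst. With the deposited score table, whose scores are rounded, Inhbb, Chrdl1, Tgfbr2 and Acvrl1 were called and the other 6 were not, with adjusted p values from 0.0680 to 0.175. None of the 6 risen genes was called with that table.

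**Figure D3:**
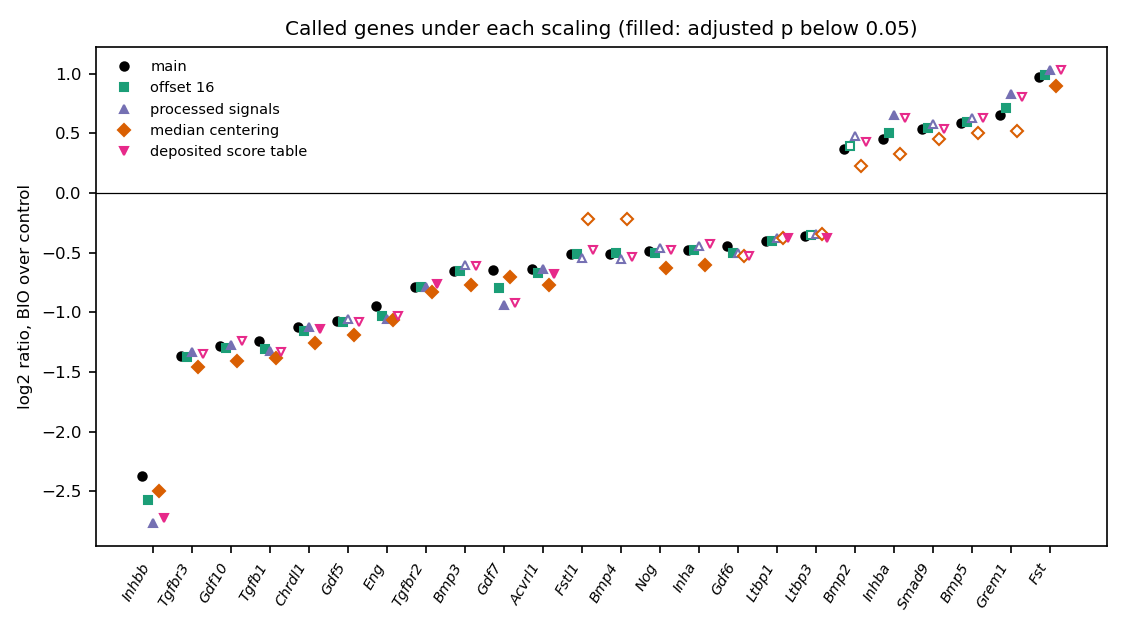
Log2 ratio of BIO over control (y axis) of the 24 called genes under the main setting and 4 other scalings, ordered by the main value. Filled symbols had an adjusted p below 0.05 and open symbols had not. No gene crosses 0, and Bmp4 and Fstl1 move closest to it with median centering, to -0.22 each.

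Further genes of the pathway were looked at in the same way to see how the changes spread beyond the 53 genes. Of 80 such genes, 72 were tested, and 11 of them rose and 18 fell, with a median log2 ratio of -0.08. The sign of each called gene was shared by both arrays. Of the called genes, 17 kept their call with the processed signals and 18 with median centering.

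Of 14 further extracellular modulators 5 rose and 2 fell. The serine protease gene Htra1 was at 2.82 and 2.63 (mean 2.72 ± 0.11, adjusted p 2.64e-05), and its intensity went from 984 to 6959 in replicate 1 and from 976 to 6027 in replicate 2. Tll1, the gene of a tolloid-like protease that can cleave chordin, was at 1.39 and 1.05 (mean 1.22 ± 0.12, adjusted p 0.000359). The BMP antagonist gene Chrdl2 rose by 0.68 (adjusted p 0.00324). Chrdl2 and Chrdl1, both chordin-like, thus moved in opposite directions on both arrays. Among the further ligands Gdf15, a stress-responsive member of the family, rose by 0.77 (arrays 0.64 and 0.91, adjusted p 0.00260). The call of Chrdl2 was lost with median centering.

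Genes often used as readouts of BMP signaling were split, with 3 of 10 risen and 3 fallen and a median of 0.13. Msx1 rose from 1430 to 6319 and from 1236 to 3552 (log2 ratios 2.14 and 1.52, mean 1.83 ± 0.15, adjusted p 0.000168). Runx2 rose by 1.67 (adjusted p 0.000130) and Msx2 by 0.84 (adjusted p 0.00120), all 3 being homeobox or runt-domain transcription factors. Hey1, also known as a Notch target and an endothelial gene, fell from 17857 to 3741 and from 17501 to 5502 (log2 ratios -2.25 and -1.67, mean -1.96 ± 0.15, adjusted p 0.000123). Tbx20 fell by 1.00 (adjusted p 0.00192), a call that was lost with the processed signals, where 3 genes of the list rose and 1 fell. Gata6, which the study used as a target of BMP4 signaling, fell by 0.39 (arrays -0.52 and -0.27, adjusted p 0.0420). The part of BMP signaling in the rises and falls of this list was not tested.

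Genes often used as readouts of TGF-beta signaling had 0 risen and 5 fallen of 8, with a median of -0.46, which lay between -0.51 and -0.30 under the alternatives. With the processed signals and with median centering 3 of the 8 fell. Ctgf fell from 9816 to 2316 and from 8154 to 2867 (log2 ratios -2.08 and -1.51, mean -1.80 ± 0.15, adjusted p 0.000159). Tagln fell by 0.99 (adjusted p 0.000574). Tagln is also a smooth muscle marker, and the smooth muscle list, which holds Tagln itself, fell as well. The processed signals of the list's genes summed to 12499 and 13007 in the control channels and to 5392 and 5930 in the BIO channels. Tagln alone made up 6290 and 6376 of the control sums and 3048 and 3356 of the BIO sums. The part of the list in the result was not tested. Of 11 latency and matrix genes 0 rose and 5 fell (median -0.34), among them Thbs1, the gene of a matrix protein that can activate latent TGF-beta, by 1.25 (arrays -1.29 and -1.21, adjusted p 0.000203), and Bgn by 0.87 (arrays -0.55 and -1.18, adjusted p 0.00527). With the processed signals 2 of the 11 fell, and Bgn was not among them. Of 14 intracellular regulators 1 rose and 2 fell, and the ubiquitin ligase gene Nedd4l fell by 0.98 (adjusted p 0.000943).

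**Figure D4:**
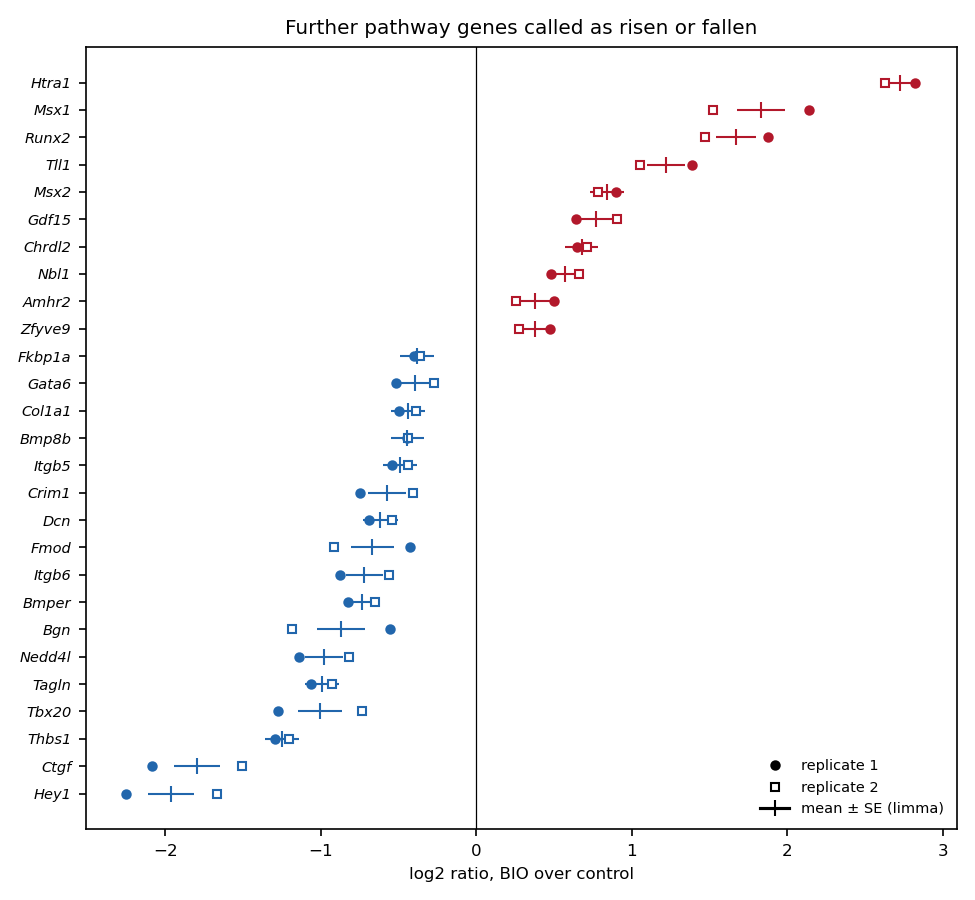
Log2 ratio of BIO over control (x axis) of 27 of the 29 further pathway genes called as risen (red) or fallen (blue). Filled circles are replicate 1, open squares replicate 2, and ticks with bars the mean and its standard error from limma. Htra1 lies highest at 2.72 and Hey1 lowest at -1.96, and Bgn and Fmod are the fallen genes with replicate 2 clearly below replicate 1.

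**Figure D5:**
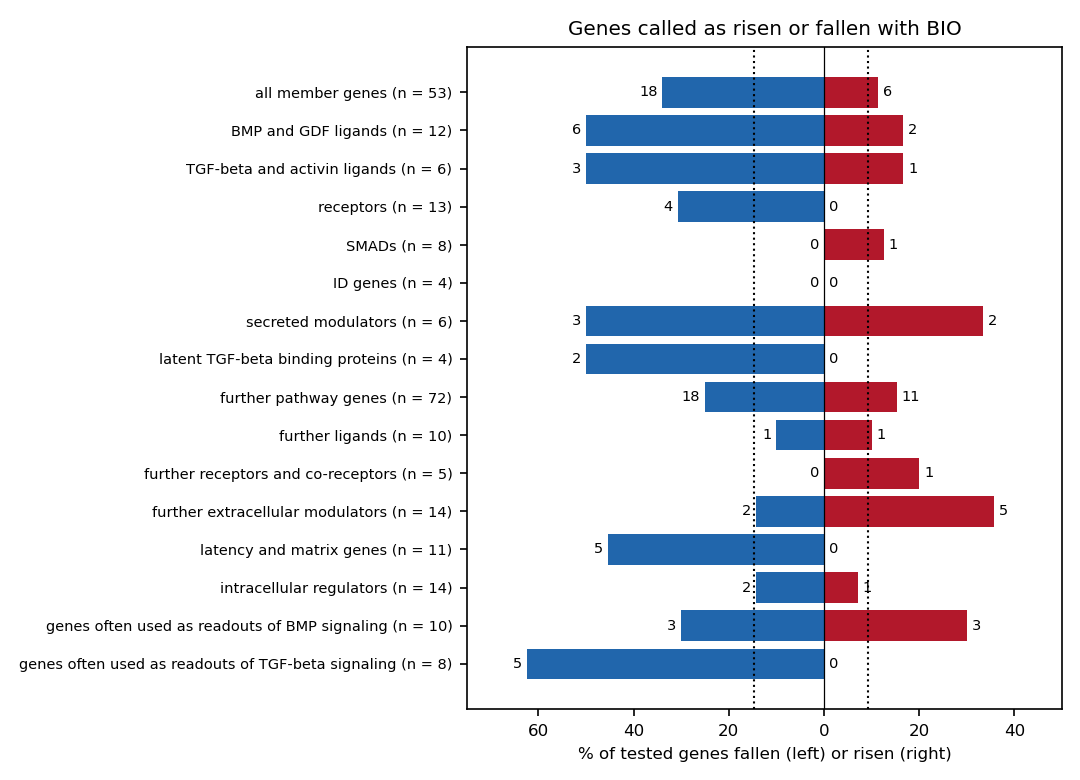
Share of tested genes called as fallen (left, blue) or risen (right, red) in percent, by role of the 53 genes and by list of the further pathway genes, with the number of genes beside each bar. Dotted lines mark the shares of all genes tested, 14.8% fallen and 9.14% risen. Readout genes of TGF-beta signaling have the longest bar for falls and no gene that rose.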

How the data were processed

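Gene expression was measured on 2 Agilent 2-color arrays, each with control and BIO RNA of cultured ureters. The authors quantified the scans with Agilent Feature Extraction 10.7.3.1, per the submitters' processing notes. The deposited scanner tables give mean spot and local background intensities without normalization, and processed signal intensities that were background-subtracted and dye-normalized. They also hold flags of 0 or 1 per spot for background, saturation and outliers. The authors further deposited 1 score per probe and array, whose making is not stated. It followed a signed fold change (Pearson correlation with the processed log2 ratio, across probes, 0.988 and 0.984), and its column medians were 1. Its centering stays unknown.

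Spot means were background-corrected by normexp (local background, offset 50) and normalized by loess within each array in limma 3.58.1 (R 4.3.3). Control and outlier spots had weight 0 and were then left out. Spots of a probe were averaged, and ratios of the array with exchanged dyes were turned to BIO over control. Tested were the 28824 probes that stood well above background in both control channels or in both BIO channels, with lmFit and eBayes against 0, two-sided, with Benjamini-Hochberg adjustment at 0.05. A gene is represented by its brightest probe. The intensity and fold-change rule, with the thresholds of signal and fold that the study used for its other arrays, used processed signals with a floor of 15, centered on the array median. Precision is limited by having 2 arrays, and the offset pulls ratios of dim probes toward 0. No dye term was fitted, since it would leave no residual degree of freedom. A gap between the 2 arrays, and the standard error, thus mix any dye effect of a probe with the spread between pools. Intensities were normalized within arrays only, so levels are not compared between probes or between arrays.

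The genes, the lists of further pathway genes and markers and the tests were chosen with earlier results of these data known. The text gives array values and adjusted p of every called gene and of Bmp4, Bmp5, Bmp6, Id2, Id4 and Ltbp1, and of the further pathway genes the called ones with the largest ratios, up to 8 in each direction. Of these, 2 are counted in their lists but not reported here. Of 8 macrophage markers Emr1 matched no gene name. The pools of an array are separate per the methods. The arrays shared 1 slide and 1 scan. Probe coordinates are in mm9, per the file headers. Promoters came from a RefSeq table of GRCm38.p6. The test was checked on simulated data. Alternatives were the processed signals, median centering, an offset of 16, no filter on dim probes, the mean over the probes of a gene, the score table, single arrays, and for the rule a minimum of 1.5-fold or 3-fold, a signal of 50 and no centering.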

Additional observations from a re-analysis of the deposited data

How the results depend on the processing

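The counts depended on how the ratios were made. The 6 risen and 18 fallen genes of the BMP and TGF-beta family became 3 and 9 from the processed signals, all of them among the 24. From the deposited scores 3 rose and 8 fell, and only 6 of these 11, all fallen, were among the 24. The others were Bmp6, Bmpr1a and Smad2, called as risen, and Tgfbr1 and Smad4, called as fallen. The scores are rounded, and 10 of the 11 genes held the same score on both arrays, as did 90.7% of all genes called with this table against 22.0% of all genes tested, so that its calls mark equal rounded scores more than large changes. With median centering in place of loess 1 gene rose, and the 13 fallen genes stayed within 1.5 times the count. The 11 risen and 18 fallen further pathway genes became 7 and 11 with median centering and 3 and 10 with the score table, where 7 of the 29 kept their call. The processed signals left 9 fallen ones. The other alternatives kept these counts within 1.5 times. Over all genes tested, 1974 rose and 3186 fell, against 800 and 1126 from processed signals, 828 and 1941 with median centering and 1931 and 1320 with the score table, where risen genes were the majority.

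The median log2 ratio of the 53 genes was -0.049 without replicate 1 and -0.19 without replicate 2, and was 0 with the score table. By the intensity and fold-change rule, 0 genes were higher and 5 lower. With a minimum of 1.5-fold 3 were higher and 9 lower, and with 3-fold 1 was lower. With 1 array left out between 0 and 1 genes were higher and 6 were lower. Leaving out the centering of the rule changed nothing and so tests nothing. Among single genes, Bmp6 turned from -0.01 to 0.14 with the score table, with an adjusted p of 0.0478. The cause of the other differences was not tested. The test is paired in itself, since control and BIO RNA of a replicate share an array.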
